A study of Danio rerio with 20 samples.

Results

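Histone genes were followed in 20 total RNA libraries of zebrafish embryos across the maternal-to-zygotic transition. They were chosen by name, as entries of the deposited gene table called hist followed by a digit, h2af, h3f3 or h1f, read without regard to capitals, together with h1m. The rule found 54 rows among the 32105 entries with values: 16 with names in lower case and 38 with names in capitals. By name these were 8 H2A rows, 18 H2B rows, 7 H3 rows and 7 H4 rows, which are called the core rows below, with 5 H2A variants, 5 rows of the H3 variant H3.3, 2 somatic linker histones, hist2h2l, whose name gives no protein class, and the oocyte linker histone h1m. Of these, 53 rows passed the filter on low reads, and HIST1H2BF (ENSDARG00000100305) had 0 reads in all 20 libraries.

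Histones package DNA into nucleosomes, and linker histones bind where the DNA enters and leaves the nucleosome. Canonical core histones are made from clustered genes whose mRNAs end in a stem-loop instead of a poly(A) tail, and they are needed in bulk whenever DNA is copied. Variants such as H3.3, H2A.Z, H2A.X and macroH2A come from separate genes and can be deposited outside replication. Eggs load embryos with histone mRNA and protein for the rapid cleavages, and an oocyte linker histone is later replaced by somatic forms. TUT4 and TUT7 are terminal uridylyltransferases, which add uridines to RNA 3′ ends. In human cells the decay of canonical histone mRNAs also involves uridylation.

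All embryos came from matings of wild-type AB fish and were injected when they had 1 cell. The double-knockdown group (TUT47MO) received morpholinos against TUT4 and TUT7, the single-knockdown groups (TUT7MO, TUT4MO) received 1 of them, and the control group (ConMO) received a control morpholino. A morpholino is an antisense oligonucleotide. The labels call those against TUT4 and TUT7 translation-blocking, so mRNA levels of the 2 genes are no check of the knockdown. Set rs1a held 12 libraries, 1 for each of the 4 groups at 2, 4 and 6 hours post fertilization (hpf). Sets rs1b and rs2 held 4 libraries each, TUT47MO and ConMO at 3 and 6 hpf in rs1b and at 3 and 5 hpf in rs2. Late libraries are those at 5 or 6 hpf and early libraries those at 2 or 3 hpf, so TUT47MO and ConMO each had 3 late and 3 early libraries, matched in 3 late and 3 early pairs. The labels give neither embryo numbers nor clutches, so p-values measure only the spread between these libraries.

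Libraries held 1.19e+07 to 3.28e+07 estimated reads, of which histone rows took 0.965 to 5.20%. Levels are given in CPM, reads scaled to a common library size, with TMM factors over the 20 libraries. They are not per length, so levels are compared between libraries and not between genes. Names on the core rows are often projected from mammals: HIST1H2BA stands on 17 rows, HIST2H2AB on 8, HIST2H3D on 4, h3f3b.1 on 4 and HIST1H4D on 2, so 35 of the 54 rows share their symbol and are told apart below by Ensembl gene ID. Near-identical copies can share reads. In set rs1b, whose values are unscaled read estimates, 76.0% of the values of histone rows were fractional, against 9.43% of the values of all genes, and 38 of 40 core rows were fractional in at least 3 of the 4 libraries. How reads were split among core rows is therefore uncertain, so class sums are given beside single rows. The 14 rows that were whole in all 4 libraries included h1m, hist2h2l, both somatic linker histones, all 5 H2A variants and 3 of the 5 H3.3 rows.

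Across the transition in control embryos the oocyte linker histone fell while nearly every other histone row rose. h1m (ENSDARG00000102892), the oocyte form of H1, had 235, 207 and 452 CPM in late ConMO libraries of rs1a, rs1b and rs2, against 1093, 1578 and 1147 CPM in early ones. The groups did not overlap, and the change was −2.10 ± 0.25 on the log2(CPM + 1) scale (SE; limma adjusted p = 0.000269, lower in 3 of 3 sets). Among the 53 tested rows 52 were called higher late in ConMO, where 37.3% of all 18082 genes tested were, and h1m alone was called lower, where 34.9% of all genes were. Late and early libraries did not overlap for 50 rows in the upward direction (34.5% of all genes) and for h1m in the downward direction (32.5%). In whole-embryo RNA, fewer cells of a type and less RNA per cell cannot be told apart.

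The 39 tested core rows rose by a median of 1.80 in log2 in ConMO, with a range of 1.04 to 2.95. HIST1H4E (ENSDARG00000070285), an H4 row, had the highest change among all histone rows on the log2(CPM + 1) scale. It had 372, 321 and 454 CPM late against 43.7, 48.2 and 60.03 CPM early (log2 change 2.95 ± 0.12, limma adjusted p = 3.06e-06). That rank depends on the scale: over the alternatives run, HIST1H4E changed by 2.62 to 3.09, and h1f0, with few reads, by 1.18 to 6.33. Core rows together summed to 25017 ± 3521 CPM late and 7891 ± 2232 CPM early (SD, n = 3 each). H3.3 rows rose by a median of 1.73, led by h3f3a (ENSDARG00000020504), which encodes the replacement H3 deposited throughout the cell cycle. It had 1315, 1552 and 696 CPM in late ConMO libraries, against 182, 175 and 113 CPM in early ones (log2 change 2.93 ± 0.14). H2A variants rose by a median of 2.16, from 0.70 for h2afva, an H2A.Z gene, to 2.70 for h2afx, the H2A.X gene whose protein is phosphorylated at DNA breaks.

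Somatic linker histones had few reads. h1f0 (ENSDARG00000038559), known in mammals as the H1 of differentiated cells, had 98, 54 and 194 estimated reads in late ConMO libraries, against 1, 1 and 7 in early ones. It was called higher late (limma adjusted p = 3.12e-05), but the size of its fitted change depends on the pseudocount. h1fx (ENSDARG00000054058) had 1.21 to 2.61 CPM late and 0.688 to 1.26 CPM early in ConMO (log2 change 0.66 ± 0.21, limma adjusted p = 0.0256). A further linker histone, histh1l (ENSDARG00000035519), falls outside the name rule by its spelling and was chosen after its values were seen. It had 206, 189 and 215 CPM in late ConMO libraries, against 0.888, 0.994 and 0.735 CPM in early ones.

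**Figure D1:**
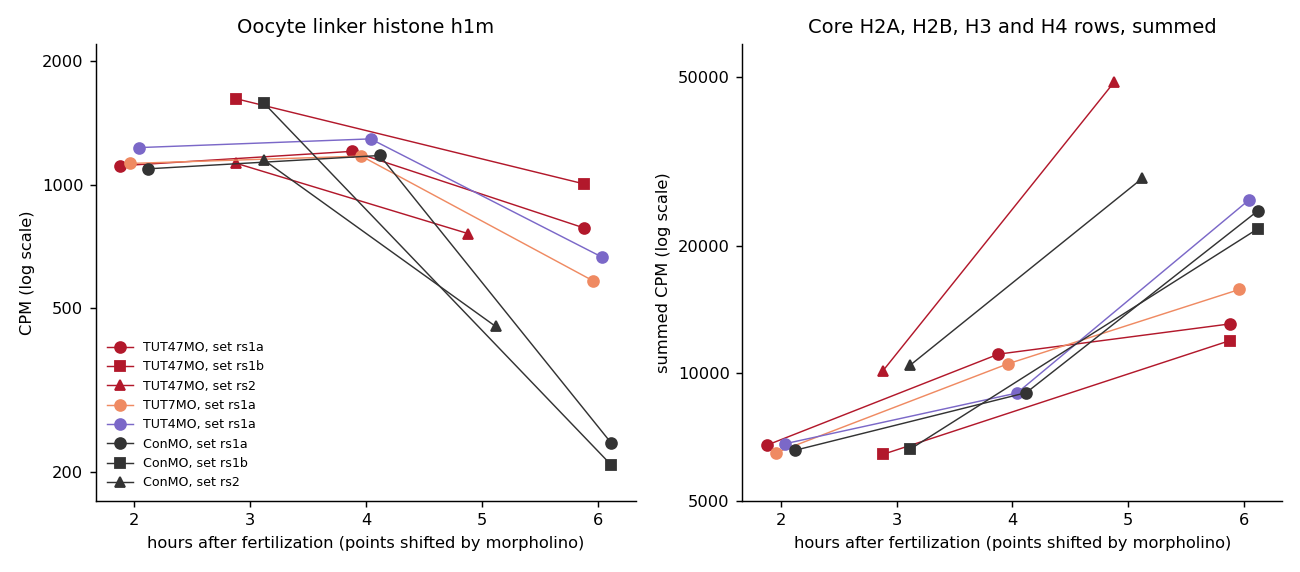
CPM of h1m (left) and summed CPM of the core H2A, H2B, H3 and H4 rows (right), both on log axes, against hours post fertilization; each point is 1 library, lines join libraries of 1 morpholino and set, and points are shifted sideways by morpholino. Late ConMO libraries sit lowest for h1m, at 207 to 452 CPM, while for the core sum the TUT47MO libraries lie below ConMO at 6 hpf and above it at 5 hpf.

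In set rs1a, the only one sampled at 4 hpf, h1m fell between 4 and 6 hpf. It had 1205 CPM in TUT47MO, 1174 CPM in TUT7MO, 1292 CPM in TUT4MO and 1178 CPM in ConMO at 4 hpf, and 1112, 1126, 1231 and 1093 CPM in the same order at 2 hpf. At 6 hpf it had 785, 584, 666 and 235 CPM in that order, so its fall from 4 hpf was largest in ConMO. Averaged over the 4 morpholinos, its change was 0.08 ± 0.26 between 4 and 2 hpf (limma adjusted p = 0.951) and −1.20 ± 0.26 between 6 and 4 hpf (limma adjusted p = 0.0049, lower in 4 of 4 morpholinos). Between 4 and 2 hpf only 1 histone row was called higher, where 2.69% of all 17755 genes were, and 0 were called lower, where 1.82% were. That row, HIST2H2AB ENSDARG00000105444, changed by 0.55 ± 0.12 (limma adjusted p = 0.0350), and it was not called without the libraries of any 1 morpholino. Without adjustment 22 of 53 rows had p under 0.05, against 17.5% of all genes. Of the 39 core rows, 38 were higher at 4 than at 2 hpf in every morpholino, with a median change of 0.57. Between 6 and 4 hpf 42 rows were called higher (28.3% of all genes) and h1m was called lower (29.1% of all genes). Without the TUT4MO libraries 22 were called higher. In every morpholino 23 of the 39 core rows were higher at 6 than at 4 hpf, among them 1 of 7 H3 rows and 3 of 7 H4 rows. The shares of all genes higher in every morpholino were not counted. Core rows can share reads, so these are not counts of independent rows. The fit takes a change between hours as equal in the 4 morpholinos, so differences between morpholinos add to its error.

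In early embryos no histone row was called different between double knockdown and control. In early libraries h1m had 1112, 1618 and 1127 CPM in TUT47MO, against 1093, 1578 and 1147 CPM in ConMO, and core sums averaged 7775 ± 2041 CPM in TUT47MO and 7891 ± 2232 CPM in ConMO (SD, n = 3 each). limma called 0 rows higher and 0 lower at this stage, the same as the 0% of all 18884 genes in each direction. At an unadjusted p under 0.05 there were 0 histone rows and 102 genes in all, and edgeR and DESeq2 also called 0 histone rows. The 53 rows differed by −0.20 to 0.23 in log2. Libraries of the 2 groups did not overlap for 0 rows in the upward direction (0.964% of all genes) and 1 in the downward direction (0.837%), h1f0, which had 0 reads in TUT47MO.

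Late embryos of the double knockdown had more h1m. It stood at 785, 1005 and 760 CPM in TUT47MO, against 235, 207 and 452 CPM in ConMO, in rs1a at 6 hpf, rs1b at 6 hpf and rs2 at 5 hpf. All 3 TUT47MO libraries were above all 3 ConMO libraries and below every early library. The fitted difference was 1.52 ± 0.26 in log2 (limma adjusted p = 0.00137), and the 3 pairs differed by 1.74, 2.15 and 0.68. It was higher in all 3 pairs under each of 3 scalings, among them the deposited values, which have no correction for library size in rs1b. The late effect exceeded the early one by 1.52 ± 0.37 (limma adjusted p = 0.0112), a call lost without rs1a (adjusted p = 0.137) or rs1b (adjusted p = 0.102). Between late and early TUT47MO libraries h1m changed by −0.57 ± 0.24, which limma did not call (adjusted p = 0.127), although it was lower in 3 of 3 sets. Without rs2 it was called (−0.54, limma adjusted p = 0.0188).

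h1m was 1 of only 2 histone rows called higher in late TUT47MO embryos, where 32% of all genes tested were. The other was hist2h2l (ENSDARG00000068996), with 83.1, 82.5 and 11.2 CPM in TUT47MO, against 19.6, 13.2 and 10.3 CPM in ConMO. Its levels stood apart in both 6 hpf pairs and were close in the 5 hpf pair (fitted difference 1.51 ± 0.40, limma adjusted p = 0.0117). That call was lost without set rs1a (adjusted p = 0.142), without rs1b (adjusted p = 0.121) and without the pair block (adjusted p = 0.0684). Unlike h1m, hist2h2l was low in early embryos of both groups, at 4.94 ± 0.90 CPM in TUT47MO and 4.18 ± 1.59 CPM in ConMO (SD, n = 3 each).

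In late TUT47MO embryos 11 rows were called lower, where 31.2% of all genes were, and 0 of these were core rows. They were all 5 H3.3 rows, all 5 rows classed by name as H2A variants and h1f0. HIST2H2AB ENSDARG00000068995 and ENSDARG00000086552, counted by name as core H2A, are h2ax1 and h2ax2 in the reference name table. Neither was called. The latter had 558, 574 and 1236 CPM in TUT47MO, against 571, 555 and 610 CPM in ConMO, in rs1a, rs1b and rs2. h3f3a had 309, 443 and 240 CPM in TUT47MO, against 1315, 1552 and 696 CPM in ConMO. The groups did not overlap, and the difference was −1.87 ± 0.13 (limma adjusted p = 2.92e-05). The 5 H3.3 rows together summed to 479 ± 128 CPM in TUT47MO and 1504 ± 444 CPM in ConMO (SD, n = 3 each), or 29.1, 32.9 and 34.6% of the ConMO level in the rs1a, rs1b and rs2 pairs. Every pair of sums differed in the same direction.

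The other 4 H3.3 rows are all named h3f3b.1. ENSDARG00000068436 had 65.7, 60.2 and 23.7 CPM in TUT47MO, against 142, 110.4 and 84.6 CPM in ConMO (−1.32 ± 0.17). ENSDARG00000045248 had 78.2, 69.8 and 63.0 CPM in TUT47MO, against 166, 114 and 162.5 CPM in ConMO (−1.11 ± 0.12), a call lost with the deposited scaling (−0.68, limma adjusted p = 0.0679). ENSDARG00000033009 differed by −1.05 ± 0.21 and ENSDARG00000068434 by −1.04 ± 0.13. All 4 were lower in all 3 pairs, but ENSDARG00000068434 and ENSDARG00000068436 had fractional reads, so their separate values are uncertain.

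Among H2A variants, h2afy (ENSDARG00000099329), a macroH2A gene whose protein is found on silent chromatin, differed most. It had 7.0, 9.4 and 4.3 CPM in late TUT47MO libraries, against 39.8, 49.6 and 27.1 CPM in late ConMO libraries (difference −2.42 ± 0.14, limma adjusted p = 2.18e-05). In TUT47MO it stayed near its early level of 5.9 to 8.2 CPM, with a late against early change of 0.01 ± 0.23. The second macroH2A gene, h2afy2 (ENSDARG00000087897), differed by −0.81 ± 0.21. Of the H2A.Z genes, h2afvb (ENSDARG00000099214) had 34.0, 76.3 and 27.8 CPM in TUT47MO, against 92.8, 185 and 61.6 CPM in ConMO (−1.33 ± 0.10), and h2afva (ENSDARG00000068820) differed by −0.54 ± 0.11. Calls of h2afy2 and h2afva with the deposited scaling were not followed. h2afx (ENSDARG00000029406) was also called, at −1.06 ± 0.35 (limma adjusted p = 0.0287), but its pairs did not share a direction. It had 562 and 443 CPM in TUT47MO at 6 hpf, against 1782 and 1372 CPM in ConMO. At 5 hpf the order turned, with 2741 CPM in TUT47MO against 2240.5 CPM in ConMO. Its call was lost in 7 of 13 alternatives, among them leaving out rs1a (adjusted p = 0.256) or rs1b (adjusted p = 0.272).

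Of the somatic linker histones, h1f0 had 25, 39 and 53 estimated reads in late TUT47MO libraries, against 98, 54 and 194 in late ConMO libraries (difference −1.24 ± 0.14, limma adjusted p = 0.000197). The call was lost once the rs1a pair at 4 hpf joined the late ones (−0.73, limma adjusted p = 0.0969). It had 0 reads in all 3 early TUT47MO libraries. h1fx differed by −0.53 ± 0.24, which was not called (limma adjusted p = 0.0880). histh1l had 57.3, 59.9 and 202 CPM in late TUT47MO libraries, against 206, 189 and 215 CPM in late ConMO libraries (−1.25 ± 0.30, limma adjusted p = 0.00767).

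Core histone rows split by hour and set. In the 6 hpf pairs they summed to 13089 and 11956 CPM in TUT47MO, against 24217 and 21964 CPM in ConMO, in rs1a and rs1b. In the 5 hpf pair of rs2 the sum was 48803 CPM in TUT47MO, against 28869 CPM in ConMO. Of the 39 core rows, 37 were lower in both 6 hpf pairs and higher in the 5 hpf pair, as were 38 of all 53 histone rows, where 6.33% of all 18884 genes showed that pattern. Core rows can share reads, so these are not counts of independent rows. HIST2H2AB ENSDARG00000068995, which the reference name table calls h2ax1, was the 1 row with the opposite pattern, seen in 10% of all genes. limma called 0 of 39 core rows in the late comparison in either direction, with adjusted p from 0.0560 to 0.986. Only 5 core rows had an unadjusted limma p under 0.05, where 67.2% of all genes did. edgeR also called 0, while DESeq2 called 12 core rows lower. Without rs2, limma called 35 core rows lower, and 46 histone rows in place of 11. The shares of all genes called by DESeq2 or without rs2 were not counted, so these counts have no share beside them. The 5 hpf pair came only from rs2, so hour and set cannot be told apart.

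Among core classes, H3 rows differed most at 6 hpf, by medians of −1.75 in rs1a and −1.78 in rs1b, and by 0.71 in rs2 at 5 hpf. hist2h3c (ENSDARG00000094154), the H3 row with most reads, had 434 and 491 CPM in TUT47MO at 6 hpf, against 1427 and 1492 CPM in ConMO. At 5 hpf it had 2710 CPM in TUT47MO, against 1846 CPM in ConMO. H4 rows differed by medians of −1.16, −1.26 and 0.73 in rs1a, rs1b and rs2. HIST1H4I (ENSDARG00000105355), the leading H4 row, had 260, 290.2 and 1541 CPM in TUT47MO, against 745, 727 and 828 CPM in ConMO. For H2B the medians were −0.77, −0.94 and 0.60, and its leading row, HIST1H2BA ENSDARG00000103722, had 838, 435 and 5215 CPM in TUT47MO, against 1435, 865 and 3235 CPM in ConMO. H2A rows differed least at 6 hpf, with medians of −0.34 in both sets and 0.93 at 5 hpf. Their leading row, HIST2H2AB ENSDARG00000100024, had 773, 893 and 1661 CPM in TUT47MO, against 1210, 1268 and 835 CPM in ConMO.

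**Figure D2:**
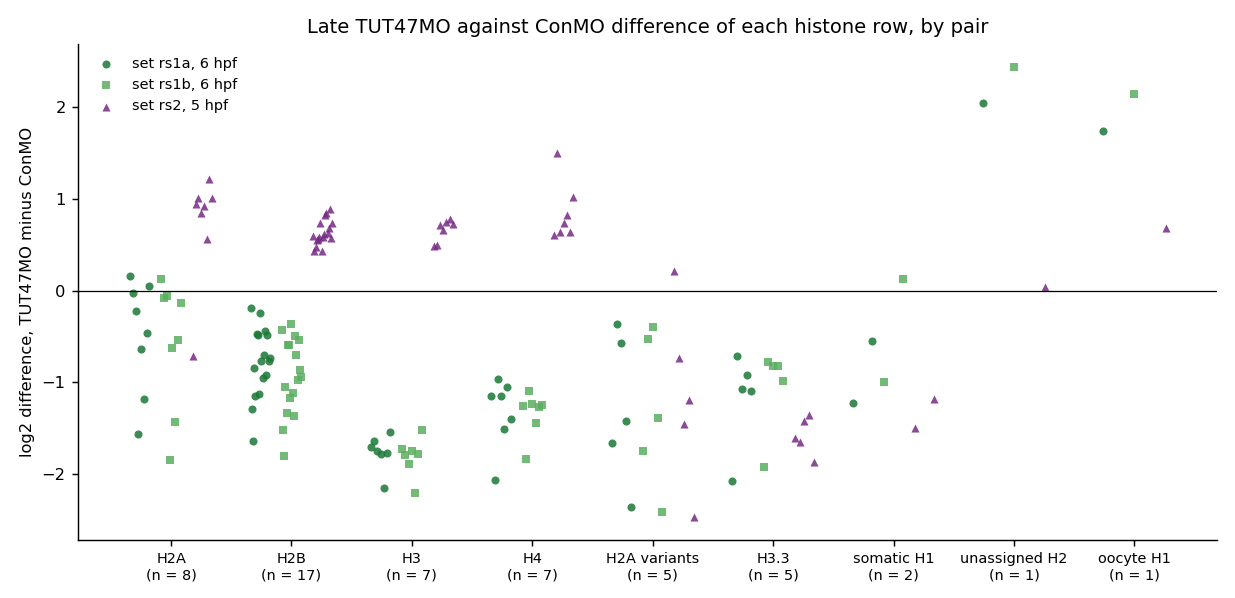
Difference in log2(CPM + 1), TUT47MO minus ConMO, of each of the 53 tested histone rows in the 3 late pairs, by class; each point is 1 row in 1 pair and n is the number of rows. Core classes lie mostly below 0 in both 6 hpf pairs and above 0 in the 5 hpf pair, whereas the 5 H3.3 rows lie below 0 and h1m above 0 in all 3.

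In all 3 late pairs 10 rows were lower (34.6% of all genes) and 2 were higher (36.9%). Late libraries of the 2 groups did not overlap for 8 rows in the downward direction (23.6% of all genes) and for h1m in the upward direction (23.9%). The late effect differed from the early one for 10 rows: h1m in the upward direction (23.8% of all genes) and 9 in the downward direction (24.2%), namely 5 H3.3 rows, h2afy, h2afvb, h2afva and h1f0. The downward count was 3 without rs1a and 45 without rs2, and for h1f0, at 0 early reads in TUT47MO, edgeR and DESeq2 gave the opposite sign. The median late difference was −0.56 over the 53 rows and 0.04 over all genes. Direct comparison of late with early TUT47MO libraries gave 31 rows called higher (12.9% of all genes) and 0 called lower (14.1%). edgeR also called 0 lower, and DESeq2 called 1, h1m. Non-overlap was seen there for 28 rows upward (17.3%) and 1 downward (17.6%).

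Class by class, late against early TUT47MO libraries gave 7 of 8 H2A rows, 15 of 17 H2B rows, 2 of 7 H3 rows and 3 of 7 H4 rows as higher. They also gave 1 of 5 H3.3 rows and 1 of 5 H2A variants, where 12.9% of all genes tested were called higher. Median log2 changes were 1.57 for H2A, 1.33 for H2B, 1.15 for H3 and 1.45 for H4. In all 3 sets 7 of 8 H2A, 17 of 17 H2B, 5 of 7 H3 and 7 of 7 H4 rows were higher. Without rs2 limma called 34 of the 39 core rows higher, in place of 27. The share of all genes called without rs2 and that higher in all 3 sets were not counted. The H3.3 row was h3f3a, at 1.09 ± 0.17 (limma adjusted p = 0.0066), and the H2A variant was h2afx, at 1.71 ± 0.34 (limma adjusted p = 0.0156). In ConMO all of these rows were called higher, and h3f3a changed by 2.93. On the log2(CPM + 1) scale hist2h2l had the highest change in TUT47MO, at 2.93 ± 0.64 (limma adjusted p = 0.01997), against 1.62 ± 0.32 in ConMO. In rs1a, rs1b and rs2 it changed by 4.07, 3.96 and 0.77 in TUT47MO, and by 2.36, 1.82 and 0.69 in ConMO. Its TUT47MO call was lost without rs1a (limma adjusted p = 0.0507). The rank depends on the scale: over the alternatives run, hist2h2l changed by 2.38 to 4.03 in TUT47MO, and h1f0 by 0.57 to 8.68.

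**Figure D3:**
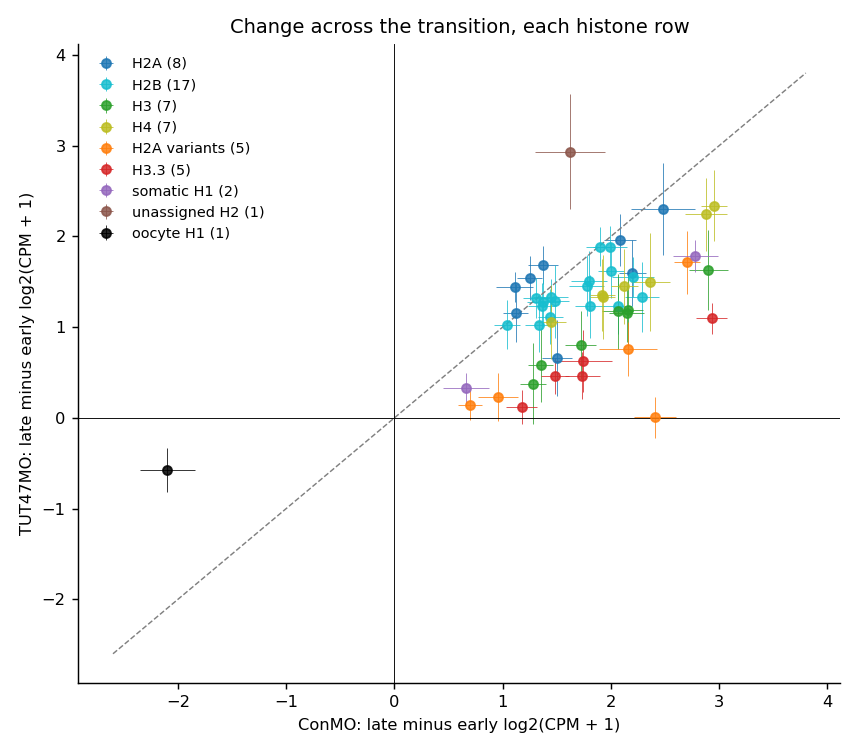
Late minus early change in log2(CPM + 1) of each tested histone row in TUT47MO (vertical) and ConMO (horizontal), with bars of 1 SE and the dashed line of equal change; numbers of rows are in brackets. h1m, at −0.57 in TUT47MO and −2.10 in ConMO, and hist2h2l, at 2.93 and 1.62, lie farthest above the line, and h2afy, at 0.01 and 2.41, farthest below it.

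The balance of oocyte linker histone to core histone RNA can be read within each library, free of scaling. Late TUT47MO libraries had 6.00, 8.40 and 1.56 h1m reads per 100 core reads in rs1a, rs1b and rs2, and late ConMO libraries had 0.969, 0.945 and 1.56. The ratio was higher in TUT47MO in both 6 hpf pairs and equal to 3 digits in the 5 hpf pair. In early libraries it was 16.4, 25.2 and 11.1 in TUT47MO and 16.6, 23.8 and 11.0 in ConMO.

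Single knockdowns were measured only in rs1a, with 1 library per hour and no replicate. Averaged over 2, 4 and 6 hpf, limma called 0 histone rows and 0% of all genes for TUT47MO, TUT7MO or TUT4MO against ConMO. That fit takes a knockdown difference as equal at all hours, so one confined to 6 hpf adds to its error. For h1m the TUT47MO libraries differed from ConMO by 0.02, 0.03 and 1.74 in log2 at 2, 4 and 6 hpf. The absence of calls therefore does not bear on differences at a single hour. edgeR also called 0 histone rows, and 5, 3 and 0 histone rows had an unadjusted p under 0.05, among 1974, 707 and 205 genes. At 6 hpf h1m had 785 CPM in TUT47MO, 584 CPM in TUT7MO, 666 CPM in TUT4MO and 235 CPM in ConMO. All 3 knockdown libraries were above the control. Core rows, by contrast, were lower than in ConMO for 37 of 39 rows in TUT47MO and 34 of 39 in TUT7MO but for 12 of 39 in TUT4MO, while 45.5, 44.3 and 49.7% of all genes were lower. Their median differences from ConMO were −0.97, −0.73 and 0.10.

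H3 rows summed to 1208 CPM in TUT47MO, 1533 CPM in TUT7MO, 3769 CPM in TUT4MO and 4036 CPM in ConMO at 6 hpf, and H4 rows to 1135, 1172, 2875 and 2829 CPM in the same order. H2A variants summed to 843, 1213, 1951 and 2226 CPM and H3.3 rows to 493, 713, 1384 and 1695 CPM, again in that order. The TUT4MO sum lay nearer to ConMO than to TUT7MO in each of these 4 classes. Of the 2226 CPM of H2A variants in ConMO, h2afx gave 1782 CPM. By row, h2afx, h2afvb and h2afy2 in TUT4MO also lay nearer to ConMO, but h2afy and h2afva lay nearer to TUT7MO. h2afy had 13.7 CPM in TUT4MO, against 6.3 CPM in TUT7MO and 39.8 CPM in ConMO, and h2afva 264, 278 and 301 CPM. hist2h2l had 83.1 CPM in TUT47MO, 179 CPM in TUT7MO, 13.8 CPM in TUT4MO and 19.6 CPM in ConMO. HIST2H2AB ENSDARG00000068995 had its highest level of any library in TUT7MO at 6 hpf, at 404 CPM, against 250.3 CPM in TUT47MO, 270 CPM in TUT4MO and 225 CPM in ConMO. The 5 maternal stage markers btg4, zar1l, buc, mos and zp3b summed to 552 CPM in TUT47MO, 391 CPM in TUT7MO, 218 CPM in TUT4MO and 111 CPM in ConMO at this hour, and the 5 zygotic markers ta, krt4, sox32, tbx16 and vent to 439, 668, 3318 and 4221 CPM. Their part in the histone values was not tested.

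**Figure D4:**
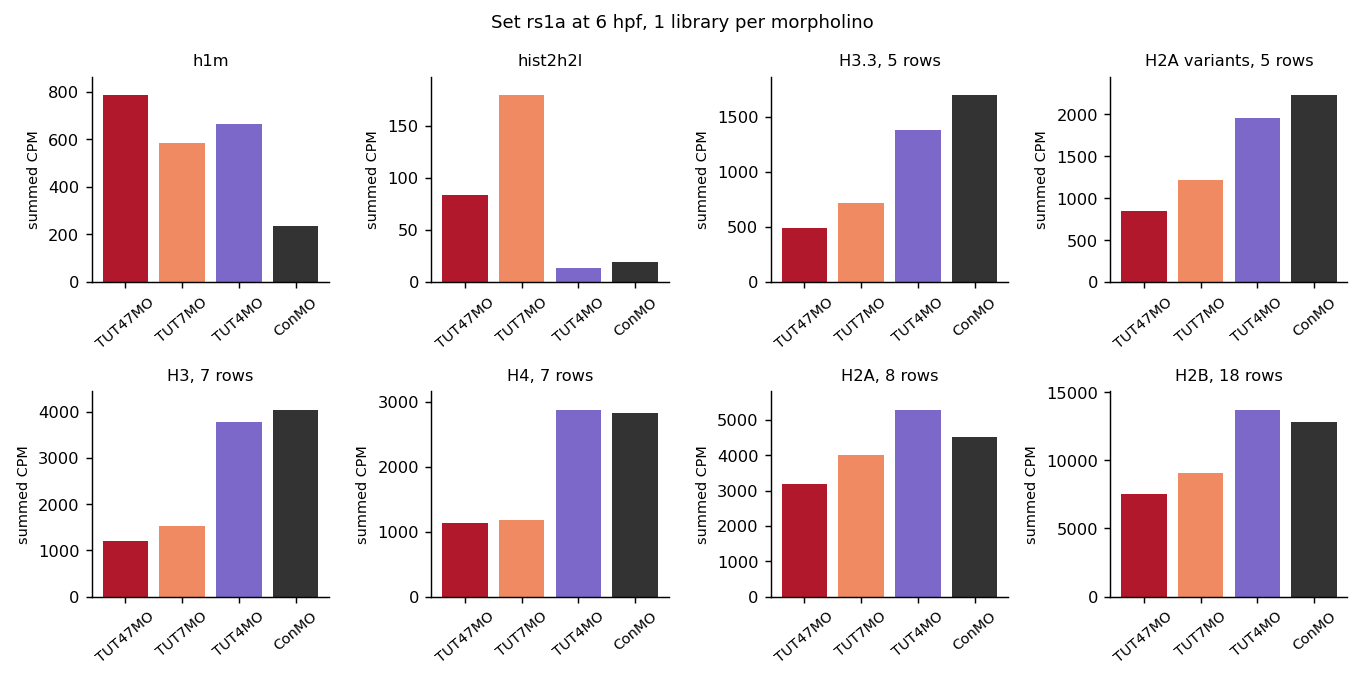
Summed CPM of h1m, hist2h2l and 6 histone classes in the 4 libraries of set rs1a at 6 hpf, 1 bar per library and axes from 0. h1m is higher in all 3 knockdowns than in ConMO, while H3 and H4 sums are low in TUT47MO and TUT7MO and close to ConMO in TUT4MO.

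At 4 hpf in rs1a most core rows of TUT47MO and TUT7MO were above ConMO, the opposite of 6 hpf, while the split in TUT4MO was near that of all genes. Core rows were higher than in ConMO for 39 of 39 rows in TUT47MO, 38 of 39 in TUT7MO and 21 of 39 in TUT4MO, where 49.2, 50.5 and 50% of all genes were higher. The median differences were 0.30, 0.18 and 0.01, and the sums were 11104 CPM in TUT47MO, 10531 CPM in TUT7MO, 8987 CPM in TUT4MO and 9004 CPM in ConMO. TUT47MO and TUT7MO libraries of that hour also stood apart in composition: AC024175.4 (ENSDARG00000080337), the entry with the most reads, took 41.0 and 40.7% of their reads, against 11.0% in TUT4MO and 11.8% in ConMO. At 6 hpf it took 46.9% in TUT47MO, 47.4% in TUT7MO, 44.0% in TUT4MO and 43.8% in ConMO, so its rise from 4 hpf was largest in TUT4MO and ConMO. The part of these shares in the core rows, or in changes between 4 and 6 hpf, was not tested. Counts were the same or nearly so under other scalings for TUT47MO and TUT7MO (36 to 39 of 39 lower at 6 hpf in TUT47MO, 33 to 35 in TUT7MO), while for TUT4MO 21 to 32 of 39 were higher at 4 hpf.

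Genes that process histone mRNA or deposit histones were followed as 2 lists. Of 14 tested genes for histone mRNA 3′ end processing and stability, 3 were called higher and 8 lower in late TUT47MO embryos, where 32% of all genes were higher and 31.2% lower. The median of the list was −0.49 and that of all genes 0.04. slbp2 (ENSDARG00000069428), an oocyte form of the stem-loop binding protein as known from Xenopus, had 63.6, 57.2 and 188 CPM in TUT47MO, against 14.6, 13.4 and 47.7 CPM in ConMO (1.95 ± 0.09). slbp (ENSDARG00000100558), which binds the stem-loop of canonical histone mRNAs, had 91.3, 123 and 153 CPM in TUT47MO, against 387, 491 and 319 CPM in ConMO (−1.77 ± 0.19). The 2 forms differed in opposite directions in all 3 pairs. lsm10, a subunit of the U7 particle that processes histone mRNA, differed by −1.27 ± 0.14, and cstf2, a cleavage factor subunit, by −0.72 ± 0.09.

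Of 34 tested histone chaperone and deposition genes, 8 were called higher and 17 lower, against the same 32% and 31.2% of all genes, with a median of −0.50. The 4 with the smallest p, all lower, were anp32a (−2.38 ± 0.09) and anp32e (−2.19 ± 0.12), members of a family of acidic nuclear proteins of which anp32e removes H2A.Z in mammals, rbbp4 (−1.42 ± 0.12), a subunit of the CAF-1 chaperone, and seta (−1.75 ± 0.16), a SET-family chaperone. In ConMO the first list had 7 genes higher and 5 lower late, and the second 18 higher and 10 lower, where 37.3% of all genes were higher and 34.9% lower.

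Markers of stage moved in the same pairs. All 5 maternal markers were called higher and all 5 zygotic markers lower in late TUT47MO embryos, where 32% of all genes were higher and 31.2% lower. Maternal markers summed to 552 to 857 CPM in late TUT47MO libraries and 102 to 227 CPM in late ConMO libraries, and zygotic markers to 439 to 852 CPM in TUT47MO and 2471 to 4221 CPM in ConMO. In the 5 hpf pair, where core rows were higher in TUT47MO, zygotic markers were still lower, at 852 CPM against 2471 CPM in ConMO. The part of developmental timing in the histone differences was not tested.

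Scaling bore on these results. The deposited scaling left values as the authors gave them, rescaled in rs1a and rs2 but with no correction for library size in rs1b. Its rs1b late pair thus set 1.48e+07 reads in TUT47MO against 1.19e+07 in ConMO. With this setting the median over all genes was 0.29 in the late comparison, in place of 0.04, and 2 rows were called higher and 6 lower. Core rows were then lower in TUT47MO for 36 of 39 in the rs1a pair and higher for 38 of 39 in the rs2 pair. In the rs1b pair 13 of 39 were higher, in place of 1, while the median over all genes was 0.545. The part of library size in these shifts was not tested. In early libraries all 39 core rows were higher in TUT47MO under that scaling, with a median of 0.23 where that of all genes was 0.18, in place of 22 lower and 17 higher. For the ConMO late against early comparison that setting called 6 rows higher in place of 52, although all 39 core rows still had positive changes. The 3 late pairs varied more than the early ones, with a median SD over histone rows of 0.914 against 0.0939, and over all genes of 0.336 against 0.116. Both phases share 1 estimate of spread, so late errors tend to be too small and early errors too large. A fit of the early libraries alone also called 0 histone rows, without a count over all genes.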

How the data were processed

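Total RNA of whole embryos was depleted of rRNA and made into stranded paired-end libraries with ERCC spike-in, per the labels' protocols. ERCC values were not used here, so no change is an amount per embryo. The submitters' processing notes name STAR 2.5.3a, RSEM and GRCz10, with settings not given in the sources used here. For rs1b the authors deposited estimated counts. The rs1a and rs2 columns hold a signal that the authors had rescaled, each library's estimated reads times its own factor (0.75 to 1.274 in rs1a, 0.382 to 2.032 in rs2) of unstated origin. Low values step by that factor, which was divided out. Of the resulting values of at most 20 reads, 84.1 to 90.8% lay within 0.02 of a whole number. Of 32660 entries, 555 (1.70%) carried no name or values and stayed out.

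As the unit was mixed, limma 3.58.1 was used on log2(CPM + 1) with a mean-variance trend. TMM scaling came from edgeR 4.0.16, filterByExpr used a minimum count of 10, and Benjamini-Hochberg adjustment ran over all genes tested at 0.05 (R 4.3.3). Changes on this scale understate those of low genes. The TUT47MO fit had 12 libraries, 6 pairs of set and hour as a block and 4 residual degrees of freedom. Pairs follow the sets, described by the submitters as independent experiments, and libraries of a pair deviated together (correlations across genes of 0.443 to 0.928, which a shared hour would also give). Late against early fits had set as a block, and the rs1a fit had hour and morpholino as terms. No 2 libraries of a group agreed within sampling noise, with chi-square values over degrees of freedom from 88.3 to 644. Total reads set the precision of low rows such as h1f0.

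Named rows were h1m, the most abundant row of each class, and up to 6 highest and 6 lowest called rows with 1 sign in every pair. Other rows are named to give a class in full. From the lists, up to 4 genes with the smallest late p were named. The members, classes, lists and tests were chosen with earlier results of these data known, so they give no independent support. Of 54 member IDs, 36 were in the reference name table. The name rule is written in lower case, and keeping only the 16 rows so spelled was an alternative added after seeing the data. Other alternatives were other scaling, pseudocounts, filters, edgeR and DESeq2 1.42.0 on rounded reads, no block and each library set left out. The late TUT47MO fit was tried on simulated counts with 1 fixed dispersion. The larger spread of the real late pairs was not part of that trial. No coordinates or sequences were used here.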

Additional observations from a re-analysis of the deposited data

Results flagged for a closer look

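The effect of TUT47MO against ConMO differed between late and early embryos for 10 histone rows by the test of the difference itself (limma, Benjamini-Hochberg over all 18884 genes). The late effect was the more negative for h2afy (difference −2.41), h3f3a (−1.85), h2afvb (−1.41), h1f0 (−1.12) and h2afva (−0.56). The same held for the 4 h3f3b.1 rows ENSDARG00000068436 (−1.28), ENSDARG00000033009 (−1.14), ENSDARG00000068434 (−1.07) and ENSDARG00000045248 (−1.03). It was the more positive for h1m (1.52). Of all genes, 24.2% were called in the downward direction and 23.8% in the upward direction. For h1f0, with 0 reads in early TUT47MO libraries, edgeR and DESeq2 gave the opposite sign. Its call was also lost with a pseudocount of 0.1 (limma adjusted p = 0.223) and without rs1a (limma adjusted p = 0.0609). That of ENSDARG00000033009 was lost with the deposited scaling, with no block, without rs1a and without rs1b (limma adjusted p from 0.0699 to 0.268). That of ENSDARG00000068436 was lost with the deposited scaling, with no block and without rs1a (limma adjusted p from 0.0583 to 0.0806). That of h2afvb was lost with no block (limma adjusted p = 0.141), and that of h1m without rs1a or rs1b. Without rs1a only h2afy, h3f3a and h2afvb were called lower. The calls of h2afva, ENSDARG00000068434 and ENSDARG00000045248 were thus lost there, and also with the deposited scaling, where 4 rows were called lower.

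Between the 6 hpf pairs and the 5 hpf pair, 38 rows were lower in TUT47MO in both 6 hpf pairs and higher in the 5 hpf pair, and 1 row, HIST2H2AB ENSDARG00000068995, went the opposite way. This difference between hours was not tested, since the 5 hpf pair comes from 1 set.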

How the results depend on the processing

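The settings that moved counts of calls differed between comparisons. In the late TUT47MO comparison (2 rows higher and 11 lower as reported), the deposited scaling gave 6 lower and DESeq2 23. Leaving out 1 set gave 1 to 2 higher and 9 to 46 lower. For the late effect minus the early one (1 higher, 9 lower), the deposited scaling gave 2 higher and 4 lower, and leaving out 1 set gave 0 to 2 higher and 3 to 45 lower. In ConMO late against early (52 higher), the deposited scaling gave 6. In TUT47MO late against early (31 higher, 0 lower), DESeq2 gave 1 lower, and leaving out 1 set gave 22 to 43 higher and 0 to 1 lower. Between 4 and 2 hpf (1 higher), the deposited scaling and no filter gave 0, edgeR gave 3, and leaving out 1 morpholino gave 0. Between 6 and 4 hpf (42 higher), the deposited scaling gave 22, and leaving out 1 morpholino gave 22 to 47. With rows spelled in lower case only, chosen after seeing the data, 15 rows were higher in ConMO and 4 in TUT47MO late against early, since fewer rows were counted. The cause of the other changes was not tested. Shares of all genes called were not counted under these settings, so the counts are of histone rows alone.

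Without the replicate block, the pairing by set and hour, 1 row was higher in the late comparison, 4 were lower for late minus early, and 12 were higher in TUT47MO late against early. No other count of calls moved by over 1.5 times without it.

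Of the repeats for named rows, 733 kept direction and call, 54 lost a call, 21 gained one and 13 turned direction. In the late comparison HIST2H2AB ENSDARG00000100024 was at 0.32 with the deposited scaling, 0.14 without rs1a and 0.16 without rs1b, and HIST1H2BA ENSDARG00000103722 at 0.0106 with the deposited scaling. For late minus early the first was at 0.0593, 0.213 and 0.0900 under the same settings, the second at 0.0912 without rs1b, and h1f0 at 2.56 with edgeR and 1.83 with DESeq2. The early difference of h1m was −0.00466 without rs1a and −0.00253 without rs1b, and its 4 against 2 hpf change −0.0929 with the deposited scaling. The late h1m call held in all 13 alternatives run, at 1.15 to 1.95. Low depth limits h1f0 and h1fx, and DESeq2 was not run on the rs1a fit.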
